A study of Arabidopsis thaliana with 24 samples.

Results

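FSD1, CSD2 and CCS are 3 genes of the plant's defence against superoxide that depend on different metals, and they were described here across roots and leaves of Arabidopsis grown with and without Fe. They were chosen by their probe sets on the Affymetrix ATH1 array, 254098_at for FSD1 (AT4G25100), 266165_at for CSD2 (AT2G28190) and 259511_at for CCS (AT1G12520), and are 3 of the 22746 probe sets that were tested. Superoxide dismutases turn superoxide into hydrogen peroxide and oxygen. FSD1 is the enzyme with Fe at its active site, CSD2 is the plastid enzyme with Cu and Zn, and CCS is the copper chaperone that loads Cu into the Cu/Zn enzymes. Transcripts of CSD2 and CCS are known targets of the microRNA miR398, which plants make when Cu is scarce, and the same Cu economy switches FSD1 on through the transcription factor SPL7. miR398 itself was not analysed here.

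The 8 groups, of 3 arrays each, were leaves of nas4x-1 at - Fe, leaves of nas4x-1 at + Fe, leaves of WT at - Fe and leaves of WT at + Fe, and the same 4 groups of roots. nas4x-1 is a quadruple T-DNA insertion line in the 4 nicotianamine synthase genes, in the Columbia background, and WT is wild type Columbia. Plants grew hydroponically at 10 µM FeNa-EDTA for 4 weeks and were then kept for 7 days at 0 µM (- Fe) or at 10 µM (+ Fe), so all groups shared the early Fe supply. Each group was harvested in 3 consecutive weeks, with 1 array per week, and leaves and roots of a week came from the same experiment.

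Of the 4 mutated genes, the nicotianamine synthases, only NAS1 separated the genotypes in the direction of the labels on every array. NAS1 had a signal of 5.33 to 31.2 on the 12 nas4x-1 arrays and of 85.8 to 943 on the 12 WT arrays. NAS2 went the other way, with 15.6 to 109 in nas4x-1 and 1.60 to 13.4 in WT leaves, and 94.0 to 345 in nas4x-1 and 25.5 to 168 in WT roots. NAS3 ranged from 10.1 to 48.7 in nas4x-1 and from 22.7 to 355 in WT leaves, and from 3.46 to 10.1 in nas4x-1 and from 8.46 to 11.4 in WT roots. NAS4 reached at most 40.8 in nas4x-1 leaves and at least 41.5 in WT leaves, but the genotypes overlapped in roots, with 16.6 to 36.8 in nas4x-1 and 5.88 to 218 in WT, and in + Fe roots 2 of 3 WT arrays lay below all nas4x-1 arrays. Where the probes lie relative to the insertions is not given in the sources used here, so these levels check the labels only in part. RCA, the Rubisco activase of leaves, ranged from 3723 to 4770 in leaves and from 29.3 to 103 in roots, and the root hair expansin EXPA7 ranged from 0.592 to 10.1 in leaves and from 79.5 to 261 in roots. Of 5 leaf and 5 root markers, these were the 1 and 1 with a probe set matched to them alone.

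In leaves FSD1 was high at + Fe and near the bottom of the array at - Fe, in both genotypes. In nas4x-1 leaves its normalized signal, an intensity on a linear scale, was 14.3, 0.51 and 5.15 at - Fe in weeks 1, 2 and 3, against 2833, 1312 and 2020 at + Fe. In WT leaves it was 27.7, 0.733 and 0.617 at - Fe, against 1920, 976 and 1285 at + Fe. All 6 - Fe arrays of leaves lay far below all 6 + Fe arrays, and week 1 had the highest FSD1 signal in each of the 4 groups. Relative to the whole array, FSD1 was brighter than or equal to 97.7% to 99.6% of probe sets in + Fe leaves and 4.90% to 44.7% in - Fe leaves. In such extracts of a whole organ, fewer cells of a type and less RNA per cell cannot be told apart.

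FSD1 fell in the - Fe leaves of both genotypes. The log2 fold change of the signal plus an offset of 16 was -6.49 in nas4x-1 (SE 0.414, adjusted p = 0.000102) and -5.88 in WT (SE 0.414, adjusted p = 3.31e-05, limma with Benjamini-Hochberg adjustment over all probe sets). In each genotype this was rank 1 by size of change among the 22746 probe sets. The offset sets the size of this change, since the - Fe signals lie below it or close to it. The value was -8.55 in nas4x-1 and -8.28 in WT with an offset of 1, and -5.70 in nas4x-1 and -5.10 in WT with an offset of 32, and FSD1 passed the test each time. On log2 signals with no offset, an error model after the description in the methods was also fitted. It gave -9.19 in nas4x-1 (adjusted p = 1) and -9.17 in WT (adjusted p = 0.517), and FSD1 did not pass. That model, called the error model of the methods below, is a simplified form without the Bayesian setting of the authors' software. Its result is therefore not theirs, and the paper lists FSD1, CSD2 and CCS among its differentially expressed genes.

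CSD2, the plastid enzyme with Cu and Zn, lay the other way round from FSD1 in the same leaves. In nas4x-1 leaves it had 2480, 2499 and 3515 at - Fe, against 608, 1063 and 652 at + Fe. In WT leaves it had 2811, 3153 and 3211 at - Fe, against 943, 2251 and 1360 at + Fe. The 6 - Fe arrays again did not overlap with the 6 + Fe arrays, and the + Fe arrays were spread more widely than the - Fe arrays. The log2 fold change was 1.87 in nas4x-1 (SE 0.302, adjusted p = 0.0590) and 1.09 in WT (SE 0.302, adjusted p = 0.228), and neither passed the test. When the week of harvest was fitted as a block, CSD2 passed in nas4x-1 (adjusted p = 0.0134) and did not in WT (adjusted p = 0.0684).

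CCS, which supplies CSD2 with Cu, had the same order of groups as CSD2 in leaves. In nas4x-1 leaves its signal was 731, 624 and 598 at - Fe, against 137, 222 and 116 at + Fe. In WT leaves it was 681, 735 and 634 at - Fe, against 184, 368 and 199 at + Fe. No - Fe array of leaves came below 598 and no + Fe array came above 368. CCS rose in - Fe leaves of nas4x-1 (log2 fold change 1.98, SE 0.261, adjusted p = 0.0236). In WT the log2 fold change was 1.46 (SE 0.261, adjusted p = 0.0559), and CCS passed there once weeks were blocked (adjusted p = 0.0115) or without the + Fe array of week 2 (1.75, adjusted p = 0.0173). The nas4x-1 call was lost without any 1 of 5 of the 6 arrays compared, with adjusted p from 0.0520 to 0.115.

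**Figure D1:**
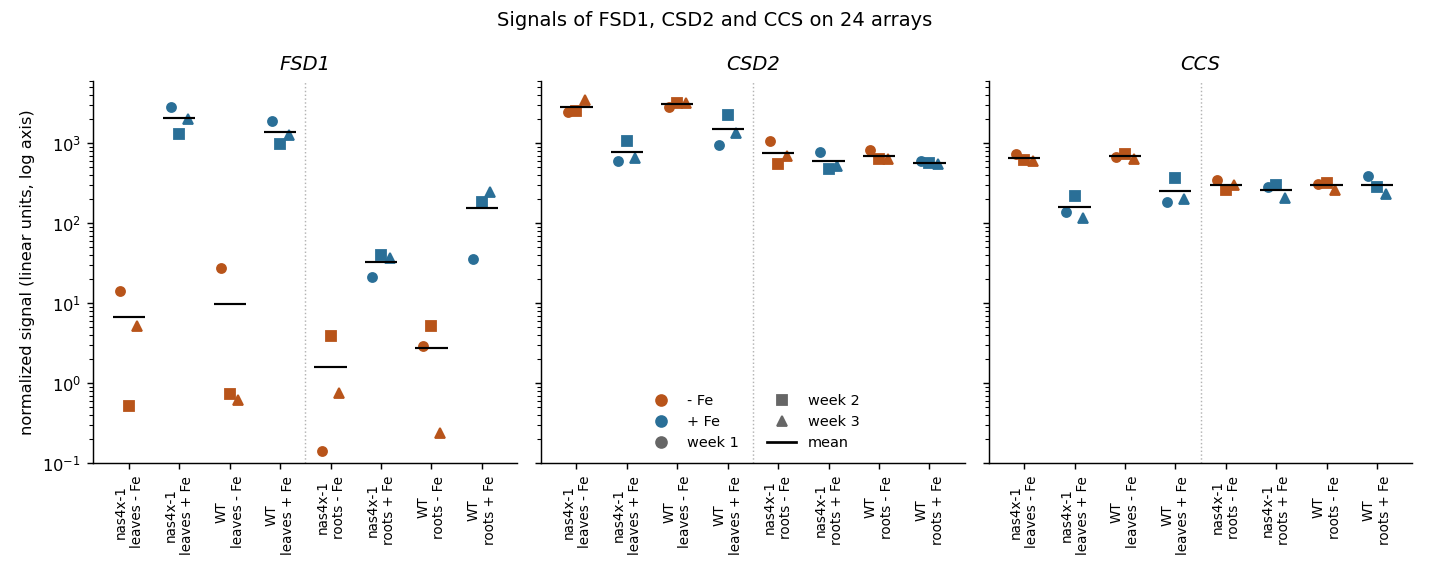
Normalized signal (linear units on a log axis) of FSD1, CSD2 and CCS on every array, by group, with the harvest week as the marker shape, the Fe supply as the colour and the group mean as a bar. In leaves FSD1 lay between 0.51 and 27.7 at - Fe and between 976 and 2833 at + Fe, while CSD2 and CCS were higher on every - Fe array than on every + Fe array.

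In nas4x-1 leaves 2 of 3 members passed, against 0.0747% of all probe sets, and in WT leaves 1 of 3 passed, against 0.176%. The 3 genes were chosen with earlier results of these data known, so these shares are a description only. The comparisons within nas4x-1 and within WT contrast different arrays. They share 1 estimate of the spread from all 12 leaf arrays, so their tests are not independent. The comparisons between genotypes and the interactions given next use the same 12 leaf arrays again. Among all 22746 probe sets 17 passed in nas4x-1 leaves and 40 in WT leaves, and with weeks blocked 127 in nas4x-1 and 276 in WT. Some of the calls belong to pairs of probe sets that exchanged their levels between the groups, and whether rows of the deposited table are interchanged on some arrays was not tested, since the raw scans were not used here. Without such pairs 1 probe set passed in nas4x-1 and 4 in WT, and FSD1 was among them in both genotypes (adjusted p = 9.35e-05 in nas4x-1 and 0.000274 in WT). The pairs were picked from these same arrays by their large changes without overlap, so leaving them out lowers the counts by construction. How often unrelated probe sets match in this way was not tested. FSD1 had no such partner in leaves, while CSD2 and CCS each had 2 in nas4x-1 leaves, and the part of this in their values was not tested.

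The genotypes were next compared at a fixed Fe supply, which asks whether the 3 genes differed between nas4x-1 and WT. At - Fe in leaves FSD1 averaged 6.67 ± 7.03 in nas4x-1 and 9.68 ± 15.6 in WT (SD, n = 3 each), CSD2 averaged 2831 ± 592 in nas4x-1 and 3058 ± 216 in WT, and CCS averaged 651 ± 70.6 in nas4x-1 and 683 ± 50.4 in WT. The log2 differences were -0.07 for FSD1 (95% confidence interval -0.97 to 0.84), -0.13 for CSD2 (-0.79 to 0.53) and -0.07 for CCS (-0.64 to 0.50). FSD1 lay near or below the offset of 16 here, which draws its difference toward 0, so its interval does not bound that difference. The FSD1 value was 0.28 with an offset of 1 and 0.53 under the error model of the methods, and passed in neither. By limma 0 of 3 members passed, with unadjusted p from 0.681 to 0.876, against 0.0659% of all probe sets.

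At + Fe the averages of leaves were further apart. FSD1 averaged 2055 ± 761 in nas4x-1 and 1394 ± 482 in WT, CSD2 averaged 774 ± 251 in nas4x-1 and 1518 ± 668 in WT, and CCS averaged 158 ± 56.1 in nas4x-1 and 250 ± 102 in WT (SD, n = 3 each). Within each of the 3 weeks the nas4x-1 array had the higher FSD1 signal and the lower CSD2 and CCS signals. The ranges of the genotypes overlapped for each gene, with the 3 weeks of a group spread widely. The log2 differences were 0.54 for FSD1 (-0.37 to 1.45, unadjusted p = 0.217), -0.91 for CSD2 (-1.57 to -0.25, unadjusted p = 0.0113) and -0.59 for CCS (-1.16 to -0.02, unadjusted p = 0.0433). After adjustment by limma 0 of 3 members passed, with p from 0.781 to 0.954, against 0.0264% of all probe sets, and with weeks blocked 0 of 3 passed, with p from 0.269 to 0.391.

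The response to Fe was also compared between the genotypes directly. In leaves, the - Fe to + Fe difference of nas4x-1 minus that of WT was -0.61 for FSD1 (95% confidence interval -1.89 to 0.68), 0.78 for CSD2 (-0.15 to 1.72) and 0.52 for CCS (-0.29 to 1.33). A positive value means that the log2 fold change was higher in nas4x-1. At - Fe FSD1 was near or below the offset, so its value rests on the + Fe difference between the genotypes and on the offset. By limma 0 of 3 members passed, with unadjusted p from 0.0930 to 0.321, against 0.0615% of all probe sets.

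In + Fe leaves the 3 genes also varied between the weeks. Week 2 had the lowest FSD1 signal of nas4x-1 (1312) and of WT (976). The same week had the highest CSD2 signal of nas4x-1 (1063) and of WT (2251), and the highest CCS signal of nas4x-1 (222) and of WT (368). Week 1 had the highest FSD1 and the lowest CSD2 signal in both genotypes. Over these 6 arrays the Pearson r of the log2 values was -0.93 between FSD1 and CSD2, -0.87 between FSD1 and CCS, and 0.95 between CSD2 and CCS. These are descriptions of 6 arrays that share 3 harvests. They hold both genotypes, whose means differed in the same directions, so the r are not of the weeks alone. Over the 6 - Fe arrays of leaves, on which FSD1 was near the bottom of the array, the same r were -0.31, 0.32 and -0.37. In roots they were -0.33, -0.31 and 0.26 over the 6 + Fe arrays, and -0.495, -0.094 and 0.83 over the 6 - Fe arrays.

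**Figure D2:**
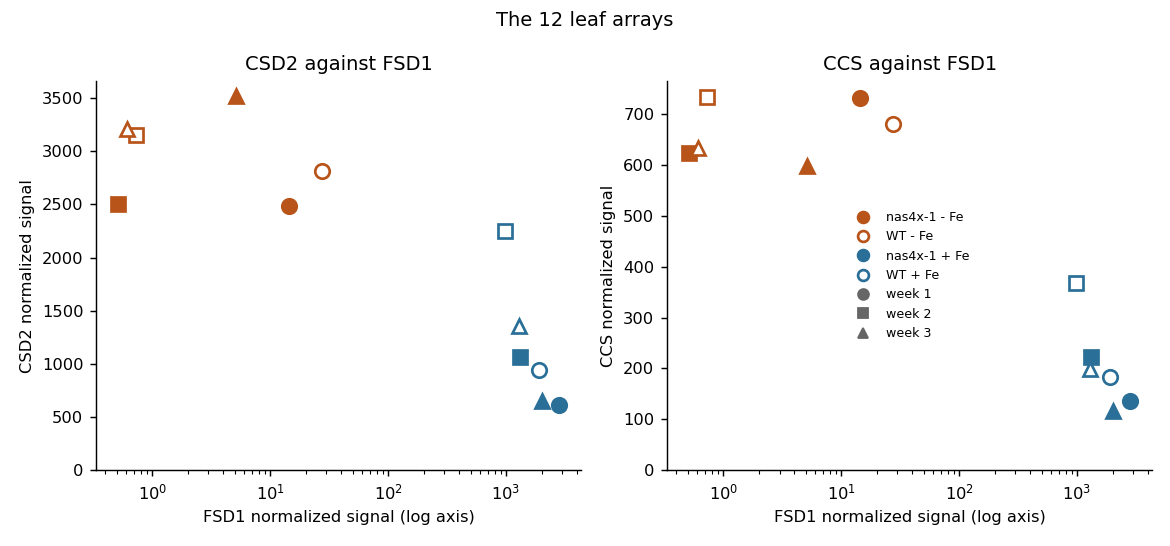
CSD2 (left) and CCS (right) against FSD1 on the 12 leaf arrays, as normalized signals with FSD1 on a log axis, filled for nas4x-1 and open for WT, with the harvest week as the marker shape. The 6 - Fe arrays had CSD2 signals from 2480 to 3515 and CCS signals from 598 to 735. Among the + Fe arrays of each genotype, week 2 (squares) had the lowest FSD1 and the highest CSD2 and CCS signals.

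The exchange can be expressed within each array, as the log2 value of CSD2 minus that of FSD1, set to a mean of 0 in the + Fe WT arrays of the organ. In leaves this was 6.28, 7.16 and 7.30 in nas4x-1 at - Fe and -2.28, -0.39 and -1.70 in nas4x-1 at + Fe. In WT it was 5.93, 7.48 and 7.51 at - Fe and -1.10, 1.11 and -0.01 at + Fe. The offset sets the size and the SD of this quantity at - Fe, where FSD1 is near or below it. Its mean at - Fe was 6.91 ± 0.555 in nas4x-1 and 6.97 ± 0.905 in WT (SD, n = 3 each). The same quantity for CCS and CSD2, the chaperone minus its client, moved little. Its mean was 0.42 ± 0.402 at - Fe and 0.32 ± 0.153 at + Fe in nas4x-1, and 0.36 ± 0.154 at - Fe and 0 ± 0.215 at + Fe in WT (SD, n = 3 each).

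In roots FSD1 was at the bottom of the array at - Fe and near its middle at + Fe, except for 2 brighter WT arrays. In nas4x-1 roots FSD1 had 0.142, 3.87 and 0.746 at - Fe, against 21.5, 40.5 and 37.2 at + Fe. In WT roots it had 2.88, 5.23 and 0.237 at - Fe, against 36.1, 186 and 248 at + Fe. The + Fe arrays were again all above the - Fe arrays, but at levels well below those of + Fe leaves, and WT week 1 stood with the nas4x-1 arrays rather than with the other WT arrays. Of all probe sets 0.506% to 22.1% were as dim as FSD1 or dimmer in - Fe roots, and 40.9% to 87.4% in + Fe roots.

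The root differences of FSD1 did not pass the test. The log2 fold change was -1.46 in nas4x-1 (SE 0.460, unadjusted p = 0.00822, adjusted p = 1.0) and -2.91 in WT (SE 0.460, unadjusted p = 4.43e-05, adjusted p = 0.252). In WT roots FSD1 was rank 4 by size of change, and without the + Fe array of week 1 its value was -3.63 and passed (adjusted p = 0.000108). FSD1 had 3 partners in WT roots with which it exchanged levels, and as for leaves an interchange of rows was not tested, so the size of this value is uncertain. The same WT root arrays enter the FSD1 comparisons between genotypes and between organs below, whose sizes are uncertain in the same way. In nas4x-1 roots 0 of 3 members passed, against 0.0132% of all probe sets. In WT roots 0 of 3 passed, against 0% of all probe sets, where limma called 0 probe sets, also with weeks blocked and under the error model of the methods, and 993 had an unadjusted p under 0.05.

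CSD2 in nas4x-1 roots had 1065, 544 and 684 at - Fe, against 785, 475 and 516 at + Fe. In WT roots it had 821, 641 and 642 at - Fe, against 600.5, 560.0 and 543 at + Fe. In all 3 weeks and both genotypes the - Fe array was the higher, and in WT the - Fe arrays did not overlap with the + Fe arrays. The differences were small, with a log2 fold change of 0.34 in nas4x-1 (95% confidence interval -0.20 to 0.88) and 0.29 in WT (-0.25 to 0.83). Week 1 had the highest CSD2 signal in each of the 4 root groups. CCS in nas4x-1 roots had 350, 258 and 304 at - Fe, against 284, 298 and 210 at + Fe, and in WT roots 313, 319 and 262 at - Fe, against 390, 283 and 231 at + Fe. These ranges overlapped, and the log2 fold change was 0.20 in nas4x-1 (-0.25 to 0.64) and 0.01 in WT (-0.43 to 0.46).

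Between the genotypes FSD1 was the only member of roots with a difference past an unadjusted 0.05. At - Fe the log2 differences of nas4x-1 from WT were -0.09 for FSD1 (95% confidence interval -1.10 to 0.91), 0.08 for CSD2 (-0.46 to 0.61) and 0.02 for CCS (-0.42 to 0.47). FSD1 lay below the offset on these arrays, so its interval does not bound a difference between the genotypes. By limma 0 of 3 members passed, with unadjusted p from 0.764 to 0.919, against 0.0747% of all probe sets. At + Fe FSD1 averaged 33.1 ± 10.2 in nas4x-1 and 157 ± 109 in WT (SD, n = 3 each), with a log2 difference of -1.54 (-2.55 to -0.54, unadjusted p = 0.00605, adjusted p = 1.0). FSD1 was lower in nas4x-1 in all 3 weeks. These WT arrays are among those on which FSD1 exchanged levels with its partners, so the size of the difference is uncertain. Without the WT array of week 1, which had 36.1, the difference was -2.26 and passed (adjusted p = 0.00183). That was the largest difference when arrays were left out in turn. With weeks blocked and all arrays kept, FSD1 did not pass by limma (adjusted p = 0.703). At + Fe CSD2 differed by 0.02 (-0.51 to 0.56) and CCS by -0.17 (-0.61 to 0.28), and 0 of 3 members passed, against 0.0703% of all probe sets.

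In roots, the - Fe to + Fe difference of nas4x-1 minus that of WT was 1.45 for FSD1 (95% confidence interval 0.03 to 2.87, unadjusted p = 0.0466, adjusted p = 1.0), 0.05 for CSD2 (-0.71 to 0.81) and 0.19 for CCS (-0.44 to 0.82). FSD1 lay below the offset on every - Fe root array (0.142 to 5.23). Its value therefore rests on the + Fe difference between the genotypes and on the offset, and does not show a weaker Fe response in nas4x-1. The untested interchange of rows in WT roots applies to it as well. By limma 0 of 3 members passed, against 0% of all probe sets. Here limma called 0 probe sets, also with weeks blocked and under the error model of the methods, and 347 had an unadjusted p under 0.05.

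**Figure D3:**
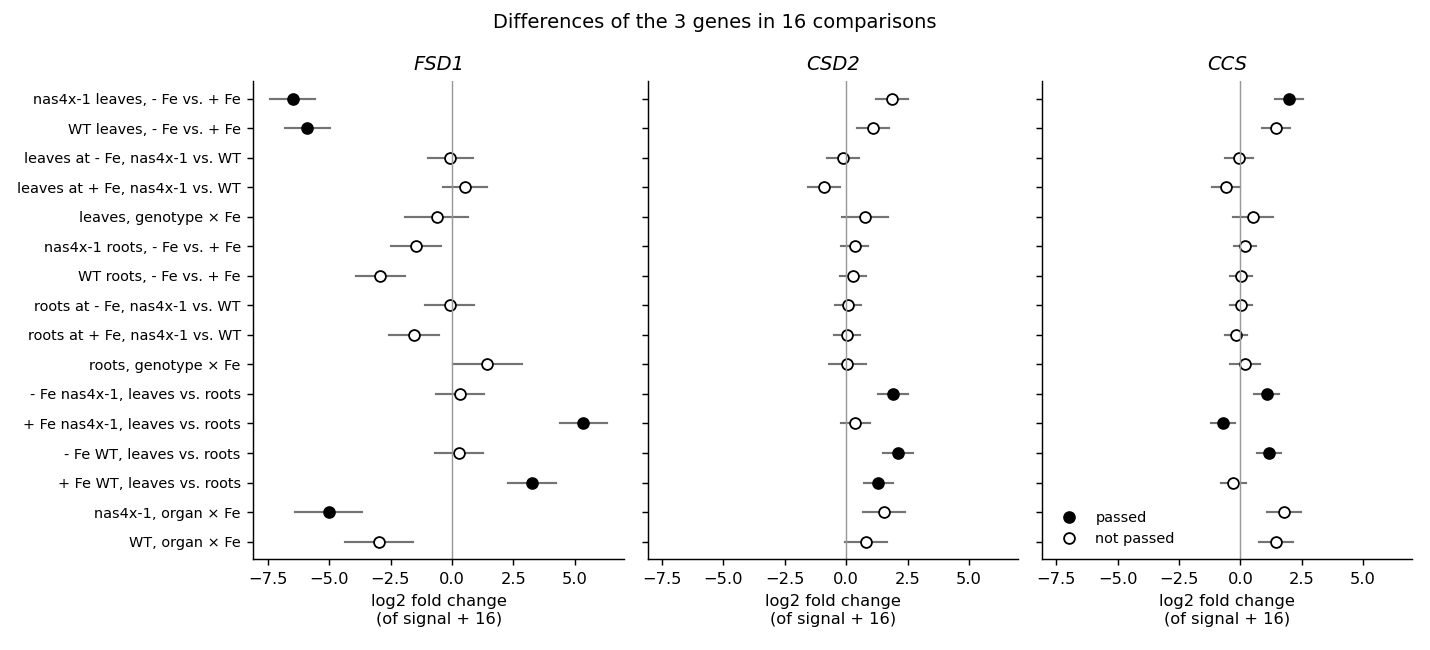
Log2 fold change (signal plus 16) of FSD1, CSD2 and CCS in the 16 comparisons, with the 95% confidence interval as a line and a filled point where the adjusted p passed. FSD1 differed most in the leaf comparisons of - Fe with + Fe, at -6.49 in nas4x-1 and -5.88 in WT, while the genotype comparisons of all 3 genes were open points.

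The organs were compared on the common scale of the table. FSD1 was higher in leaves than in roots at + Fe, by 5.35 (log2, SE 0.464, adjusted p = 4.39e-09) in nas4x-1 and by 3.27 (SE 0.464, adjusted p = 5.39e-06) in WT. At - Fe the difference was 0.33 in nas4x-1 (95% confidence interval -0.64 to 1.29) and 0.30 in WT (-0.67 to 1.27). FSD1 lay near or below the offset on the - Fe arrays, so these intervals do not bound a difference between the organs. CSD2 was higher in - Fe leaves than in - Fe roots, by 1.90 in nas4x-1 (adjusted p = 1.17e-05) and 2.11 in WT (adjusted p = 3.20e-06). At + Fe it was 2.47-fold higher in WT leaves (adjusted p = 0.000729), and in nas4x-1 the difference was 0.37 (adjusted p = 0.322). CCS was higher in - Fe leaves than in - Fe roots, by 1.07 in nas4x-1 (adjusted p = 0.000969) and 1.16 in WT (adjusted p = 0.000436). At + Fe it was lower in leaves of nas4x-1 (-0.71, adjusted p = 0.0190), and in WT the difference was -0.29 (adjusted p = 0.358). The call in nas4x-1 was lost without the + Fe leaf array of week 1 or 3 or the + Fe root array of week 1 or 2, with adjusted p from 0.0620 to 0.107, and the WT value was -0.58 (adjusted p = 0.0475) without the + Fe leaf array of week 2.

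Passing is common between organs. In nas4x-1 2 of 3 members passed at - Fe, against 44.6% of all probe sets, and 2 of 3 at + Fe, against 45.6%. In WT 2 of 3 passed at - Fe, against 44.8%, and 2 of 3 at + Fe, against 45.8%.

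The Fe response of leaves minus that of roots was tested as the interaction of organ and Fe supply. For FSD1 it was -5.03 in nas4x-1 (SE 0.656, adjusted p = 0.00493) and -2.97 in WT (SE 0.656, adjusted p = 0.107). With an offset of 1 the nas4x-1 value was -4.60 and did not pass (adjusted p = 0.592), and with an offset of 32 the WT value was -2.89 and passed (adjusted p = 0.0425). The WT value was -3.43 and passed (adjusted p = 0.0106) without the - Fe leaf array of week 1. FSD1 lay below the offset on every - Fe array of nas4x-1 (0.51 to 14.3 in leaves and 0.142 to 3.87 in roots), so the nas4x-1 value rests on the + Fe difference between the organs and on the offset. In nas4x-1 FSD1 was the 1 probe set of 22746 that passed, so 1 of 3 members passed, against 0.0044% of all probe sets.

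For CCS the organ interaction was 1.78 in nas4x-1 (SE 0.339, adjusted p = 0.0792) and 1.44 in WT (SE 0.339, adjusted p = 0.151). It passed in both genotypes with weeks blocked (adjusted p = 0.0245 in nas4x-1 and 0.0497 in WT), and in WT without the + Fe leaf array of week 2 (1.74, adjusted p = 0.0262). For CSD2 it was 1.53 in nas4x-1 (adjusted p = 0.383) and 0.80 in WT (adjusted p = 0.988). In WT 0 of 3 members passed by limma, with unadjusted p of 0.000203 for FSD1, 0.000379 for CCS and 0.0615 for CSD2, against 0.0879% of all probe sets.

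The order of the 8 group means was different for each gene. FSD1 was highest in + Fe leaves of nas4x-1 (2055) and WT (1394), followed by + Fe roots of WT (157) and of nas4x-1 (33.1), and the 4 - Fe groups came last, with means from 1.59 to 9.68. Among neighbours in that order the ranges parted only between WT leaves and WT roots at + Fe. CSD2 was highest in - Fe leaves of WT (3058) and nas4x-1 (2831), then in + Fe leaves of WT (1518) and nas4x-1 (774), with root means from 568 to 764. Its ranges parted only between the - Fe leaves of nas4x-1 and the + Fe leaves of WT. CCS was highest in - Fe leaves of WT (683) and nas4x-1 (651), the root groups came next, with means from 264 to 304, and + Fe leaves of WT (250) and nas4x-1 (158) came last. Its ranges parted only between the - Fe leaves of nas4x-1 and the - Fe roots of nas4x-1.

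Genes with the most similar pattern in leaves were sought among 536 probe sets of 1 named gene whose group means spanned at least 1 (log2). The Pearson r is over the 12 leaf arrays, which fall into 2 sets by Fe supply and share 3 harvests, and it is given as a description. CSD2 and CCS were each other's most similar gene (r = 0.96). The gene most opposite to FSD1 was CCS (r = -0.94), followed by OPT3 (r = -0.92), an oligopeptide transporter that moves Fe in the phloem. The gene most opposite to both CSD2 (r = -0.89) and CCS (r = -0.94) was FSD1. Most similar to FSD1 were AT1G76800 (r = 0.94), annotated as Vacuolar Iron Transporter-Like 2, AT2G25625 (r = 0.92) and FER1 (r = 0.91), a ferritin that stores Fe in plastids.

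These genes were picked by their r with members that parted by Fe supply in leaves. Their means therefore follow the Fe supply by construction and are given as a description. FER1 averaged 190 at - Fe and 3290 at + Fe in nas4x-1 leaves, and 253 at - Fe and 1854 at + Fe in WT leaves. OPT3 averaged 844 at - Fe and 134 at + Fe in nas4x-1 leaves, and 690 at - Fe and 127 at + Fe in WT leaves. AT5G05250 was the next most similar gene to both CSD2 (r = 0.79) and CCS (r = 0.89), and averaged 484 at - Fe and 4.69 at + Fe in nas4x-1 leaves and 389 at - Fe and 31.5 at + Fe in WT leaves. AT1G33940 (r = 0.79) came next for CSD2 and OPT3 (r = 0.89) for CCS. Next most opposite were AT1G76800 for CSD2 (r = -0.87) and AT3G49160 for CCS (r = -0.93).

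In roots the search covered 231 probe sets and 12 arrays. Most similar to FSD1 were AT3G13840 (r = 0.82), AT1G52800 (r = 0.78) and FER1 (r = 0.77), which averaged 429 at - Fe and 1150 at + Fe in nas4x-1 roots and 550 at - Fe and 1190 at + Fe in WT roots. Most opposite to FSD1 were MTPA2, the vacuolar metal tolerance protein also called MTP3, and AT3G47040 (both r = -0.92). FER1 was thus among the 3 most similar genes to FSD1 in each organ. In roots the group means of CSD2 spanned 0.36 and those of CCS 0.20 (log2), less than the minimum set for other genes, and r between these 2 was 0.50 there. With so small a span, the genes that came nearest to CSD2 (AT5G19700, AT5G10210 and AT4G16260, r from 0.83 to 0.87) and to CCS (AT5G10210, AT3G18560 and AT1G72060, r from 0.69 to 0.73) are given for completeness. The most opposite were tny (r = -0.83) and AT3G18170 (r = -0.80) for CSD2, and AT1G80320 (r = -0.73) and AT3G32030 (r = -0.70) for CCS.

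Other genes of superoxide and Cu metabolism were read from lists, of which only the genes with a probe set matched to them alone could be measured. Of 10 superoxide dismutases and their helper proteins 4 were measured, the 3 members and MSD2, a manganese superoxide dismutase. MSD2 was dim, with group means from 2.15 to 19.7, and its log2 fold change between - Fe and + Fe leaves was -0.34 in nas4x-1 and 0.30 in WT (adjusted p = 0.569 in WT and higher in nas4x-1). Of these 4, 1 rose (CCS) and 1 fell (FSD1) in nas4x-1 leaves, against 0.0747% of all probe sets called. In WT leaves 0 rose and 1 fell (FSD1), against 0.176%. These are the calls of the members given above, so the list adds only MSD2, which did not pass. The median, also mostly of members, was 0.77 in nas4x-1 and 0.69 in WT (log2), against 0 in nas4x-1 and -0.02 in WT over all probe sets.

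Of 5 targets of miR398 the measured ones were CSD2, CCS and COX5B-1, a subunit of mitochondrial cytochrome c oxidase. COX5B-1 had 260, 214 and 239 at - Fe in nas4x-1 leaves, against 117, 242 and 210 at + Fe. In WT leaves it had 211, 225 and 196 at - Fe, against 158, 184 and 177 at + Fe. It was higher on the - Fe array in 5 of 6 pairs of a week, with a log2 fold change of 0.35 in nas4x-1 (adjusted p = 0.751) and 0.26 in WT (adjusted p = 0.807). Of these 3 genes 1 rose in nas4x-1 leaves, against 0.0747% of all probe sets called, and 0 in WT leaves, against 0.176%. The call is that of CCS given above, so the list adds only COX5B-1 to the members.

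Of 18 genes of Cu economy 7 were measured, and by limma 0 of 7 passed between - Fe and + Fe in either organ or genotype. At 0.0747% of all probe sets called in nas4x-1 leaves, 0.176% in WT leaves, 0.0132% in nas4x-1 roots and 0% in WT roots, a count of 0 is near the background, and the same holds for the 2 lists that follow. Their median in leaves was -0.23 in nas4x-1 and -0.06 in WT (log2), against 0 in nas4x-1 and -0.02 in WT over all probe sets. CCH, a copper chaperone of the ATX1 type, had 586, 467 and 307 at - Fe in nas4x-1 leaves, against 1554, 928 and 1032 at + Fe. In WT leaves it had 912, 630 and 677 at - Fe, against 1638, 994 and 1408 at + Fe. The 6 - Fe arrays did not overlap with the 6 + Fe arrays, and this chaperone lay the opposite way to CCS. Its log2 fold change was -1.35 in nas4x-1 (unadjusted p = 0.000464, adjusted p = 0.154) and -0.84 in WT (unadjusted p = 0.0113, adjusted p = 0.350), and with weeks blocked it passed in nas4x-1 (adjusted p = 0.0134).

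Among the metal transporters of the same list, ZIP2 and COPT2 differed more in roots and YSL2 more in leaves. YSL2, a transporter of the yellow stripe-like family, had a log2 fold change of -0.44 in nas4x-1 leaves and -0.78 in WT leaves (unadjusted p = 0.130 in nas4x-1 and 0.0138 in WT), and of -0.21 in nas4x-1 roots and -0.32 in WT roots. ZIP2, a transporter of the ZIP family, averaged 11.2 ± 8.32 at - Fe and 74.9 ± 43.0 at + Fe in nas4x-1 roots, and 9.94 ± 5.49 at - Fe and 66.9 ± 35.5 at + Fe in WT roots (SD, n = 3 each). Its log2 fold change was -1.68 in nas4x-1 (adjusted p = 0.544) and -1.62 in WT (adjusted p = 0.731), and with weeks blocked ZIP2 passed in nas4x-1 (adjusted p = 0.0149). COPT2, a copper transporter of the plasma membrane, averaged 238 ± 35.2 at - Fe and 90.3 ± 48.1 at + Fe in nas4x-1 roots, and 132 ± 113 at - Fe and 43.1 ± 49.8 at + Fe in WT roots, with a log2 fold change of 1.34 in each genotype (adjusted p = 1.0 in both). In leaves the log2 fold change of COPT2 had the other sign, -0.42 in nas4x-1 and -0.61 in WT, and passed in neither. CITF1, a transcription factor of Cu uptake, was near the bottom of the array in all groups, with means from 1.47 to 6.20.

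Of 6 copper pumps and copper proteins of the plastid 3 were measured by 4 probe sets. By limma 0 of 4 passed between - Fe and + Fe in either organ or genotype. HMA1, a metal pump of the plastid envelope, averaged 202 ± 45.7 at - Fe and 193 ± 14.6 at + Fe in nas4x-1 leaves, and 205 ± 27.0 at - Fe and 198 ± 35.9 at + Fe in WT leaves (SD, n = 3 each). In nas4x-1 roots HMA1 had 120, 122 and 105 at - Fe, against 76.2, 89.6 and 73.9 at + Fe, without overlap (log2 fold change 0.46, unadjusted p = 0.0339, adjusted p = 1.0), and in WT roots 65.7, 118 and 63.5 at - Fe, against 72.5, 77.4 and 78.4 at + Fe. The 2 probe sets of PAA1, the Cu pump of the plastid envelope, had log2 fold changes of 0.01 and 0.52 in nas4x-1 leaves and -0.03 and 0.14 in WT leaves.

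Of 15 genes that remove hydrogen peroxide, the product of the dismutases, 4 were measured, and by limma 0 of 4 passed between - Fe and + Fe. SAPX, the stromal ascorbate peroxidase, had 65.0, 30.9 and 104 at - Fe in nas4x-1 leaves, against 308, 328 and 349 at + Fe. In WT leaves it had 24.3, 110 and 166 at - Fe, against 231, 303 and 247 at + Fe. All - Fe arrays lay below all + Fe arrays, as for FSD1, with a log2 fold change of -2.16 in nas4x-1 (unadjusted p = 0.000689, adjusted p = 0.178) and -1.50 in WT (unadjusted p = 0.00818, adjusted p = 0.318). TAPX, its counterpart on the thylakoid, averaged 400 ± 81.7 at - Fe and 412 ± 136 at + Fe in nas4x-1 leaves, and 345 ± 84.8 at - Fe and 402 ± 57.5 at + Fe in WT leaves (SD, n = 3 each). The glutathione reductases GR1 and GR2 had log2 fold changes from -0.03 to 0.44 in leaves.

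**Figure D4:**
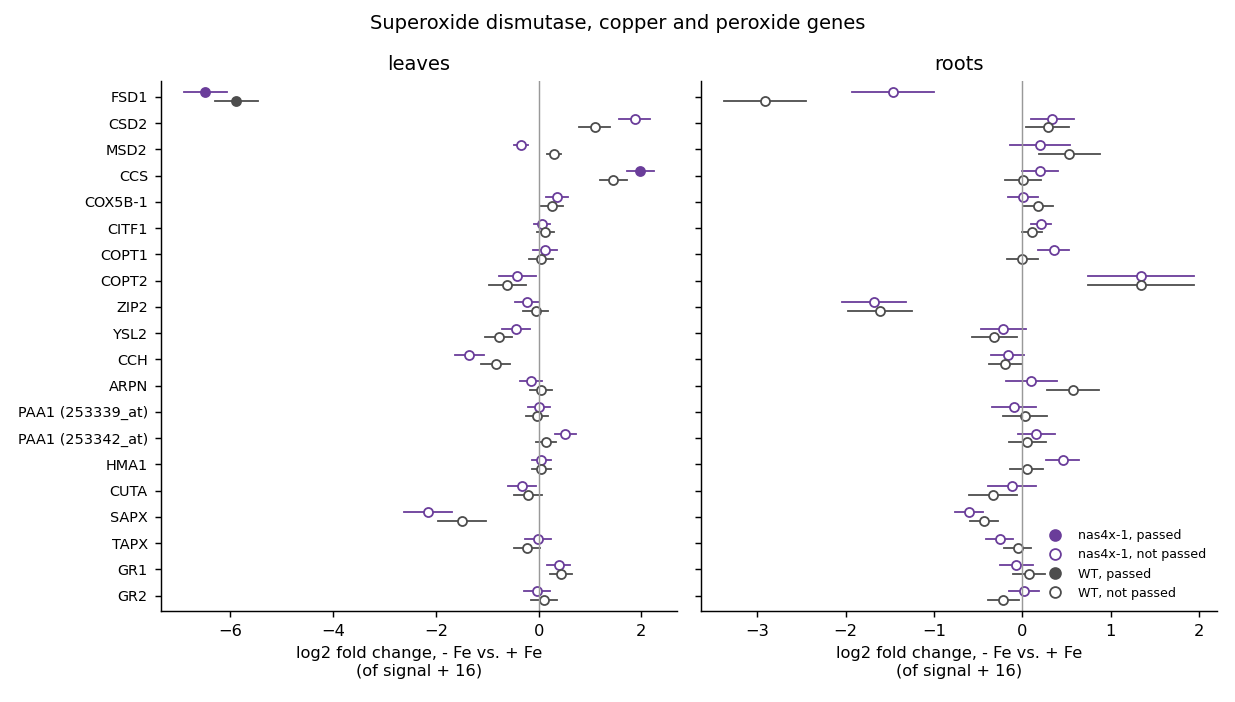
Log2 fold change between - Fe and + Fe (signal plus 16) of the measured genes of the superoxide dismutase, miR398, Cu and peroxide lists in leaves (left) and roots (right), with the standard error as a line, nas4x-1 above WT, and a filled point where the adjusted p passed. FSD1 in leaves of both genotypes and CCS in leaves of nas4x-1 are the 3 filled points. In leaves CCH and SAPX lie on the side of FSD1 without passing. YSL2, COPT2, ZIP2, CUTA and TAPX also lie on that side in both genotypes, by smaller amounts.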

How the data were processed

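The authors hybridized biotin-labelled cRNA of roots and leaves to 24 ATH1 arrays, read out signals with the Affymetrix software (GCOS) scaled to a common target, and quantile normalized them over all arrays. The deposited values are these intensities on a linear scale, 1 per probe set and array. Aligners and builds do not apply to arrays, and the number of arrays limits the precision. Of 22810 probe sets 64 controls were left out. Column medians were from 38.0 to 38.1, and 3 values were 0. Groups came from the sample titles. Of the probe sets, 13513 were matched to 1 gene through the platform table and 194 through the study's tables or the choice of members (FSD1 and CSD2), 503 to several and 8536 to none.

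An offset of 16 was added and log2 taken. The comparisons were fitted in limma 3.58.1 (R 4.3.3), whose variance prior followed the mean signal, over the 12 arrays of an organ or, between organs, all 24 arrays, with Benjamini-Hochberg adjustment over 22746 probe sets and a threshold of 0.05. Printed means and SD are of the signal. Quantile normalization over both organs sets the scale on which leaves and roots were compared.

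The replicate number is the harvest week, given by the design as 3 consecutive weeks, and pairs the arrays. Residuals correlated at 0.170 to 0.505 within weeks in leaves and at most 0.122 between weeks, and at 0.213 to 0.639 and at most 0.211 in roots. With 3 arrays against 3 an exact permutation test cannot go below p = 0.1, so none was run.

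The 3 genes and the gene lists were chosen with earlier results of these data known. Named were the 3 members, listed genes that passed between - Fe and + Fe, with or without weeks blocked, and at most 4 others per list. Listed genes that passed only between organs were not all named. Per member and organ the 3 highest and 2 lowest Pearson r were given. Alternatives were normalizing again within organs, offsets of 1 and 32, dropping the 40 percent of probe sets with the lowest means, the week as a block, no trend, an ANOVA after the methods with the variance averaged over 500 probe sets, only the groups compared, leaving out pairs that exchanged levels (opposite changes of 1.5 log2 or more in both), leaving out each array and, between organs, the plants of a group and week as a block.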

Additional observations from a re-analysis of the deposited data

Results flagged for a closer look

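In nas4x-1 the - Fe to + Fe difference of FSD1 in leaves minus that in roots was -5.03 on the log2 scale (SE 0.656, adjusted p = 0.00493, limma), past the threshold at the offset of 16. FSD1 at - Fe lay below that offset, at 0.51 to 14.3 in leaves and 0.142 to 3.87 in roots, so the value rests on the + Fe difference between leaves and roots (5.35) and on the offset, and no size of the - Fe response itself can be read from it. FSD1 was lower on all 6 - Fe arrays than on the + Fe array of the same organ and week. The value was -4.60 with an offset of 1 and -4.76 with an offset of 32, with adjusted p of 0.592 and 0.000678.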

How the results depend on the processing

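Of 774 values of the 3 genes under the alternatives, 725 kept their direction and their side of the threshold, 15 lost it, 12 gained it and 22 turned in sign, none of which passed in either setting. Blocking the harvest week, a pairing given by the design, brought past the threshold CCS in WT leaves (1.46, adjusted p = 0.0115), CSD2 in nas4x-1 leaves (1.87, 0.0134) and the organ interaction of CCS in nas4x-1 (1.78, 0.0245) and WT (1.44, 0.0497), and changed no other call of the 3 genes. The error model of the methods, in the simplified form fitted here with no offset, lost FSD1 in leaves of nas4x-1 (-9.19, 1.0) and WT (-9.17, 0.517) and CCS in leaves of nas4x-1 (2.09, 0.589). That CCS call was also lost with only the arrays compared (1.98, 0.133) and without the exchanged pairs (1.98, 0.0738). Leaving out those pairs takes away probe sets with large changes, which raises the adjusted p of the others at the same fold change. Dropping dim probe sets brought in CSD2 in nas4x-1 leaves (1.87, 0.0337). An offset of 32 brought in the organ interaction of FSD1 in WT (-2.89, 0.0425), and an offset of 1 lost that in nas4x-1 (-4.60, 0.592). The difference of FSD1 between nas4x-1 and WT in - Fe leaves turned to 0.28 with an offset of 1 and 0.53 under the error model. The cause of these changes was not tested.

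Leaving out each array, CCS between - Fe and + Fe ranged from 1.80 to 2.23 in nas4x-1 leaves, from 1.28 to 1.75 in WT leaves and from -0.15 to 0.20 in WT roots, and FSD1 in WT roots from -3.63 to -2.46. Between nas4x-1 and WT, FSD1 ranged from -0.30 to 0.40 in - Fe leaves, from -0.19 to 0.00035 in - Fe roots and from -2.26 to -1.09 in + Fe roots. CSD2 ranged from -0.19 to 0.29 in - Fe roots and from -0.19 to 0.16 in + Fe roots, and CCS from -0.081 to 0.13 in - Fe roots and from -0.33 to 0.027 in + Fe roots. The genotype interaction in roots ranged from -0.21 to 0.27 for CSD2 and from -0.0062 to 0.35 for CCS. Between leaves and roots, CCS at + Fe ranged from -0.96 to -0.54 in nas4x-1 and from -0.58 to -0.094 in WT, and FSD1 in - Fe WT from -0.16 to 0.53. The organ interaction in WT ranged from -3.43 to -2.26 for FSD1 and from 1.25 to 1.74 for CCS.

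Counts over all probe sets moved more, and the drop without exchanged pairs follows from how those pairs were picked. In nas4x-1 leaves 17 passed between - Fe and + Fe, against 27 without dim probe sets, 127 with weeks blocked, 0 under the error model, 6 with only the arrays compared, 1 without exchanged pairs and 1 to 16 leaving out each array. In WT leaves 40 passed, against 25 with an offset of 32, 276, 10, 18 and 4 under the same last 4 settings, and 16 to 161 leaving out each array. With 3 arrays a group and FSD1 near the bottom of the array at - Fe, the size of its change there is set by the offset.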
